A study of Mus musculus with 6 samples.

Results

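The genes described here are 40 genes of cell proliferation: 14 of DNA replication and nucleotide supply, 19 of mitosis and 7 that control entry into the cycle from its first gap phase (G1). They were chosen by name as a group of known cell cycle genes, at a time when earlier results of these data were known. Each was read through the probe set, among all those annotated to it, with the highest mean over the arrays. A probe set was present for 39 of the 40 genes, cyclin B1 (Ccnb1) being the exception, out of 18193 genes on the array. A filter on weak signals left 10916 genes for testing, and 38 of the members passed it. The remaining one, Tyms, stayed below the filter.

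RNA came from the colon of C57BL/6 mice aged 6 to 8 weeks, taken 24 h after ethanol had been given by rectal injection to every animal. There were 2 arrays of wild type colon (WT), 2 of GPR41 KO and 2 of GPR43 KO. GPR41 and GPR43, encoded by Ffar3 and Ffar2, are receptors for the short-chain fatty acids that gut bacteria release. Which part of each allele was deleted is not given, uninjected colon was not analysed here, and nothing in the labels says that the arrays of a group are separate animals, so the p-values may cover technical spread only.

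A dividing cell licenses its replication origins by loading the MCM helicase in G1, copies its DNA in S phase with nucleotides supplied by ribonucleotide reductase and related enzymes, and separates the copies in mitosis under the control of cyclin-dependent, Polo-like and Aurora kinases. Replication genes are transcribed mainly around the G1 to S transition under E2F factors, and mitotic genes mainly in G2 and M phase under the DREAM and B-MYB-FOXM1 complexes and NF-Y. In the colon these genes are used mostly by the transit-amplifying cells of the lower crypt, which renew the epithelium, and by dividing immune and stromal cells.

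Replication and mitosis genes lay on opposite sides of WT in both KO groups. All 13 tested replication members had a lower mean log2 level in the 4 KO arrays than in WT (12 of 13 when each array was centred on its median), with a median difference of -0.24. All 18 tested mitosis members had a higher one, also with median centring or quantile normalization, with a median difference of 0.32, while the median over all tested genes was 0.01. Single differences were small. Over both KO groups 5 of the 38 members passed the test, as did 6.99% of all tested genes. Rrm2 and Mcm3 fell, and Ccnb2, Cdc20 and Nusap1 rose. Differences are in log2(signal + 18) and were tested with limma, with p-values adjusted over all tested genes by the Benjamini-Hochberg method and a threshold of 0.05.

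The library labelled GPR43 KO replicate 1 went against its label, since its Ffar2 signal was 1598, above the 1194 and 1118 of WT, while GPR43 KO replicate 2 had 189.0. GPR41 KO arrays had 1857 and 1933, and no probe set carried the symbol Ffar3, so that label was not checked. Every GPR43 KO value below includes this library unless it is said to be left out. Values without it are given for some of the counts. They are not given for counts of arrays without overlap, for further probe sets or for cell type lists. The arrays were already scaled alike, with median signals from 80.9 to 96.8 and equal trimmed means. Both WT arrays carried a strong neutrophil signal that was far lower in the KO arrays. The summed signal of 16 neutrophil markers was 78733 to 143523 in WT, 1340 to 1356 in GPR41 KO and 1344 to 3506 in GPR43 KO. No marker was listed at 0, and 10 of the 16 passed the filter. Because the high WT signals raised the means that the filter reads, no count of falls is drawn from them.

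**Figure D1:**
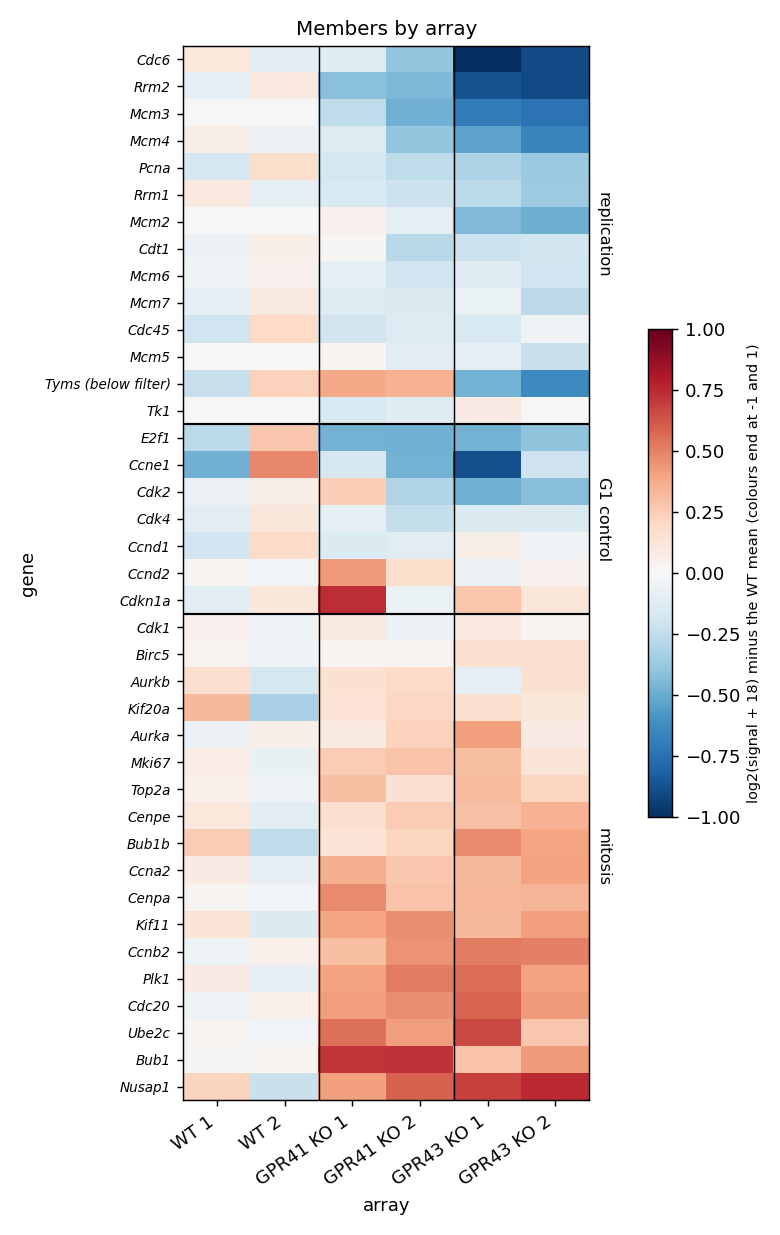
Each row is a member and each column an array. Colour gives log2(signal + 18) minus the mean of the 2 WT arrays, blue for lower and red for higher. The replication rows are blue and the mitosis rows red across most KO arrays. Among the replication rows Cdc6, Rrm2 and Mcm3 are darkest blue in GPR43 KO, and among the mitosis rows Bub1 and Nusap1 are darkest red. In the G1 rows, Ccne1 is about as dark blue in GPR43 KO replicate 1 and Cdkn1a as dark red in GPR41 KO replicate 1.

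Of the 13 tested replication members, Rrm2 and Mcm3 fell and 11 did not pass the test in any comparison. Of all tested genes, 3.79% were called lower over both KO groups. All KO arrays of 7 members lay below WT (15.2% of all tested genes), and arrays of 6 overlapped with WT. Rrm2 (chr12:24708254-24714146, GRCm38.p6) encodes the small subunit of ribonucleotide reductase that is made in S phase and makes deoxyribonucleotides. Its signal was 1785 and 2050 in WT, 1425 and 1398 in GPR41 KO, and 1037 and 1014 in GPR43 KO. The 3 groups did not overlap, and both KO groups lay below WT. Rrm2 fell by 0.89 ± 0.13 on the log2 scale in GPR43 KO (SE, n = 2 per group, limma adjusted p = 0.00813), to 53.5% of the WT mean signal. In GPR41 KO the difference was -0.43 ± 0.13 (limma adjusted p = 0.106), at 73.6% of WT. Over the 4 KO arrays it fell by 0.66 ± 0.11 (limma adjusted p = 0.0102). Without GPR43 KO replicate 2 the GPR43 KO difference was -0.87 (limma adjusted p = 0.0653), and without WT replicate 2 the difference over both KO groups was -0.56 (0.081). Rrm1, the large subunit of the same enzyme, had signals of 2165 and 1888 in WT, 1814 and 1737 in GPR41 KO, and 1678 and 1564 in GPR43 KO. Its 4 KO arrays were all below WT, but with differences of -0.19 and -0.32 it passed no test.

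The MCM helicase is a ring of 6 related subunits that unwinds DNA at the fork, and Mcm3 was its only subunit to pass a test. Mcm3 (chr1:20802966-20820312) had a signal of 1217 in both WT arrays, 1015 and 865.3 in GPR41 KO, and 747.8 and 722.5 in GPR43 KO. No group overlapped another. Mcm3 fell by 0.71 ± 0.14 in GPR43 KO (limma adjusted p = 0.0294), to 60.4% of WT, and by 0.54 ± 0.12 over both KO groups (0.0341). In GPR41 KO its difference was -0.37 ± 0.14 (0.195). The Mcm3 call over both KO groups was lost with any 1 array left out (adjusted p from 0.0543 to 0.141), and that in GPR43 KO without either WT or either GPR43 KO array (0.0503 to 0.165). Mcm4 showed the same order of groups, with 1272 and 1177 in WT, 1119 and 929.8 in GPR41 KO, and 844.9 and 773.5 in GPR43 KO. Its difference in GPR43 KO was -0.59 ± 0.15 (limma adjusted p = 0.0677). Mcm2 was at 952.8 and 949.6 in WT and at 979.3 and 890.4 in GPR41 KO, which overlap, but at 695.3 and 674.2 in GPR43 KO, a difference of -0.46 ± 0.14 from WT (0.109). The kept probe sets of Mcm5, Mcm6 and Mcm7 had differences between -0.17 and -0.04 in both KO groups, but other probe sets of these genes reached -0.51, -0.38 and -0.42 in GPR43 KO. The kept probe sets of Mcm3, Mcm5 and Mcm7 are of the types that may also bind other transcripts.

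The loading factors and the sliding clamp completed this group. Cdc6, which with Cdt1 loads the helicase on origins, had weak signals of 249.6 and 212.5 in WT, 209.8 and 171.8 in GPR41 KO, and 85.3 and 115.4 in GPR43 KO. The GPR43 KO arrays were thus the lowest, and no group overlapped another. The difference of GPR43 KO from WT was -1.08 ± 0.28, the widest of any member, and had a limma adjusted p of 0.0677. Cdt1 and Cdc45, a partner of the helicase, had differences between -0.20 and -0.09. Pcna, the clamp that holds DNA polymerase on its template, had signals of 11119 and 14150 in WT, 11083 and 10499 in GPR41 KO, and 10111 and 9669 in GPR43 KO. Its 4 KO arrays lay below both WT arrays, with differences of -0.22 ± 0.14 and -0.34 ± 0.14 (limma adjusted p = 0.45 and 0.221).

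The thymidylate enzymes were below WT in 1 KO group each. Tk1, the thymidine kinase of S phase, had signals of 1524 and 1531 in WT, 1374 and 1402 in GPR41 KO, and 1617 and 1531 in GPR43 KO. Its differences were -0.14 and 0.04, and Tk1 was the only replication member above 0 in GPR43 KO. Tyms, thymidylate synthase, had signals of 66.4 and 97.7 in WT, 110.2 and 107.9 in GPR41 KO, and 53.2 and 45.6 in GPR43 KO, all too weak to enter the test.

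**Figure D2:**
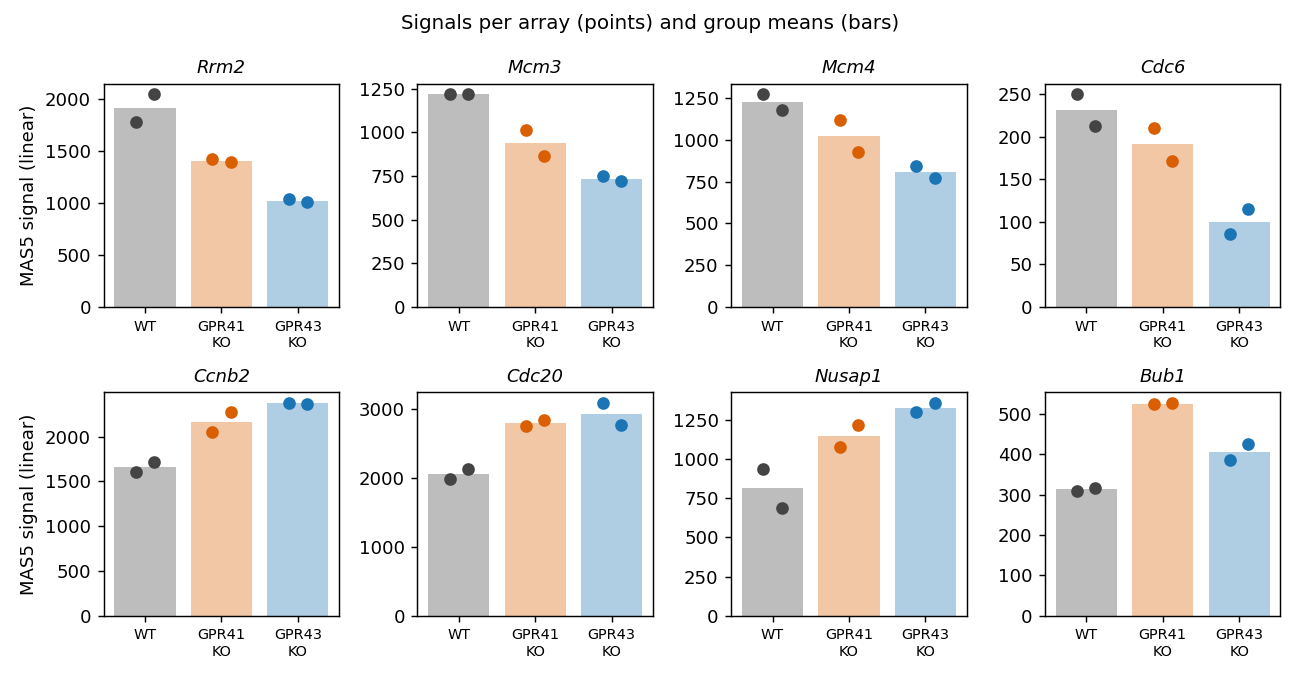
Bars are group means and points are the 2 arrays of each group, on a linear signal axis that starts at 0. Rrm2, Mcm3, Mcm4 and Cdc6 step down from WT to GPR41 KO to GPR43 KO with no overlap. Ccnb2 and Nusap1 step up, Cdc20 is higher in both KO groups, and Bub1 is highest in GPR41 KO at 524.7 and 527.4.

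Of the 18 tested mitosis members, Ccnb2, Cdc20 and Nusap1 rose over both KO groups and 15 did not pass. Of all tested genes, 3.2% were called higher over both KO groups. All KO arrays of 13 members lay above WT (17.1% of all tested genes), and arrays of 5 overlapped with WT. Ccnb2 (chr9:70407689-70421554) encodes cyclin B2, a partner of Cdk1 at mitotic entry. It had signals of 1604 and 1714 in WT, 2046 and 2276 in GPR41 KO, and 2374 and 2364 in GPR43 KO, with no overlap between groups. Over both KO groups Ccnb2 rose by 0.44 ± 0.11 (SE, 4 KO arrays against 2 WT arrays, limma adjusted p = 0.0408), to 137% of WT. In the single groups its differences were 0.38 ± 0.12 and 0.51 ± 0.12 (limma adjusted p = 0.13 and 0.0564). Ccna2, cyclin A2, was at 2793 and 2495 in WT, 3389 and 3182 in GPR41 KO, and 3302 and 3499 in GPR43 KO. Its 4 KO arrays were above WT, at 0.34 ± 0.10 over both groups (0.0941). Cdk1, the kinase itself, was at 2854 and 2693 in WT, 2952 and 2662 in GPR41 KO, and 2976 and 2828 in GPR43 KO. These overlap, and the Cdk1 difference over both KO groups was 0.04 ± 0.10 (0.86).

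Both members of the anaphase-promoting pathway, which destroys cyclins and securin at the end of metaphase, were higher in every KO array. Cdc20 (chr4:118432901-118437343), the activator of the complex, had signals of 1987 and 2137 in WT, 2757 and 2844 in GPR41 KO, and 3092 and 2780 in GPR43 KO. Cdc20 rose by 0.47 ± 0.10 over both KO groups (limma adjusted p = 0.0303), to 139% of WT, and had differences of 0.44 ± 0.12 and 0.51 ± 0.12 in the single groups (0.0809 and 0.056). Ube2c, the ubiquitin-conjugating enzyme of the complex, had signals of 4415 and 4226 in WT, 6326 and 5767 in GPR41 KO, and 6839 and 5196 in GPR43 KO, a difference of 0.47 ± 0.13 over both (0.0628).

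Nusap1 (chr2:119618298-119650165), a microtubule-binding protein of the spindle, had signals of 936.3 and 686.8 in WT, 1073 and 1218 in GPR41 KO, and 1296 and 1356 in GPR43 KO. All KO arrays were above both WT arrays, although the WT arrays were themselves far apart. Nusap1 rose by 0.61 ± 0.15 over both KO groups (limma adjusted p = 0.0453), to 152% of WT. The Ccnb2 and Cdc20 calls were lost with any 1 array left out (adjusted p from 0.0719 to 0.117 and from 0.0574 to 0.0903), and the Nusap1 call with any array but WT replicate 1 left out (0.079 to 0.265). Bub1, a kinase of the spindle checkpoint, had signals of 309.2 and 317.0 in WT, 524.7 and 527.4 in GPR41 KO, and 386.3 and 425.6 in GPR43 KO. It was the mitosis member farthest from WT in GPR41 KO, at 0.72 ± 0.17 (0.0529), and at 0.36 ± 0.17 in GPR43 KO (0.295). Plk1, the Polo-like kinase, was at 928.4 and 828.1 in WT, 1166 and 1257 in GPR41 KO, and 1298 and 1167 in GPR43 KO, a difference of 0.47 ± 0.12 over both (0.0536).

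None of the remaining mitosis members passed a test. Mki67, the antigen Ki-67 used to mark cycling cells, had signals of 2422 and 2188 in WT, 2754 and 2807 in GPR41 KO, and 2842 and 2523 in GPR43 KO, a difference of 0.24 ± 0.11 over both (limma adjusted p = 0.221). Top2a, the topoisomerase that untangles sister chromatids, was likewise above WT in all 4 KO arrays, at 0.25 ± 0.11 (0.214). The centromere histone gene Cenpa, the kinesin genes Kif11 and Cenpe and the Aurora kinase gene Aurka had differences of 0.20 to 0.40 over both KO groups, each with all KO arrays above WT. For the checkpoint kinase gene Bub1b, the survivin gene Birc5, the kinesin gene Kif20a and the Aurora kinase gene Aurkb, GPR41 KO arrays overlapped with WT. For Bub1b and Birc5 both GPR43 KO arrays lay above both WT arrays, and for Kif20a and Aurkb they overlapped as well. Birc5, Kif20a and Aurkb were at most 0.16 above WT over both KO groups.

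The G1 members, among them the D and E cyclins and their kinases, lay in no common direction, with 2 of 7 above and 5 below WT in each KO group, and none passed a test. Cdkn1a, the p21 inhibitor and a p53 target, was at 4836 and 5690 in WT and at 8748 and 5006 in GPR41 KO, so that 1 GPR41 KO array stood far above the other. In GPR43 KO it was 6346 and 5716. Ccnd2, cyclin D2, had signals of 6600 and 6375 in WT, 8711 and 7345 in GPR41 KO, and 6230 and 6668 in GPR43 KO. Both GPR41 KO arrays were above both WT arrays, at 0.30 ± 0.13 (limma adjusted p = 0.231). E2f1, a factor that drives S phase genes, had a weak signal of 265.6 and 391.8 in WT, and all 4 KO arrays lay below both, from 226.5 to 239.5 (difference of -0.46 ± 0.21 over both groups, 0.236). Cdk2 was at 653.8 and 712.1 in WT, 814.5 and 552.0 in GPR41 KO, and 484.2 and 503.4 in GPR43 KO. The kept probe set of Ccne1, cyclin E1, differed 2-fold between the WT arrays themselves, 289.7 against 578.1. A weaker Ccne1 probe set above the filter gave -0.82 in GPR41 KO and -0.575 in GPR43 KO. Its KO arrays, from 118.3 to 179.5, all lay below the WT arrays, at 227.2 and 300.7. The kept probe sets of Ccnd1 and Cdk4 had differences between -0.16 and 0.01. Another Ccnd1 probe set gave -0.30 in GPR41 KO and -0.53 in GPR43 KO, and another of Cdk4 gave -0.33 in both, each with all KO arrays below WT.

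Counts of members by comparison stood as follows. Against WT, GPR41 KO had 0 of 38 members past the threshold in limma, where 4.96% of all 10916 tested genes were (1.85% higher and 3.11% lower), and 12 had an unadjusted p under 0.05 (2132 of all genes). Of its 13 replication members, 13 were below 0 (49.9% of all genes; 11 with median centring), and both arrays of 9 lay below both WT arrays (25.3% of all genes). Of its 18 mitosis members, 18 were above 0 (50.1%; 16 with quantile normalization), and both arrays of 13 lay above both WT arrays (24.6%). GPR43 KO had 2 members past the threshold (3.96% of all genes), 2 lower (2.41%) and 0 higher (1.55%), with 14 at an unadjusted p under 0.05 (2181 of all genes). There, 12 of 13 replication members were below 0 (46.0% of all genes), 10 with no overlap (22.9%), and 18 of 18 mitosis members above 0 (54.0%), 15 with no overlap (27.7%). Over both KO groups 5 members were called (6.99% of all genes), 3 higher (3.2%) and 2 lower (3.79%), with 13 of 13 replication members below 0 (48.4%) and 18 of 18 mitosis members above (51.6%). With 4 arrays against 2, 7 of 13 replication members lay wholly below WT (15.2% of all genes) and 13 of 18 mitosis members wholly above (17.1%). Both KO groups were set against the same 2 WT arrays, so these counts are not independent of each other.

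Single arrays bore on these counts in different ways. With the library labelled GPR43 KO replicate 1 left out, 12 of 13 replication members were below 0 in GPR43 KO with a median of -0.37, 18 of 18 mitosis members were above 0 with a median of 0.34, and Rrm2 was the only member still called. With all arrays the medians were -0.32 and 0.34. Without WT replicate 2, 12, 11 and 12 of 13 replication members were below 0 in GPR41 KO, in GPR43 KO and over both, and 14, 16 and 15 of 18 mitosis members were above 0. The replication median in GPR43 KO was then -0.17, and over both groups -0.11 against -0.24 with all arrays. Centring each array on its median instead moved the GPR41 KO median of all genes from 0.00 to 0.11. The replication median there was then -0.04 (11 of 13 below 0) and the mitosis median 0.41, against -0.16 and 0.29 before.

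**Figure D3:**
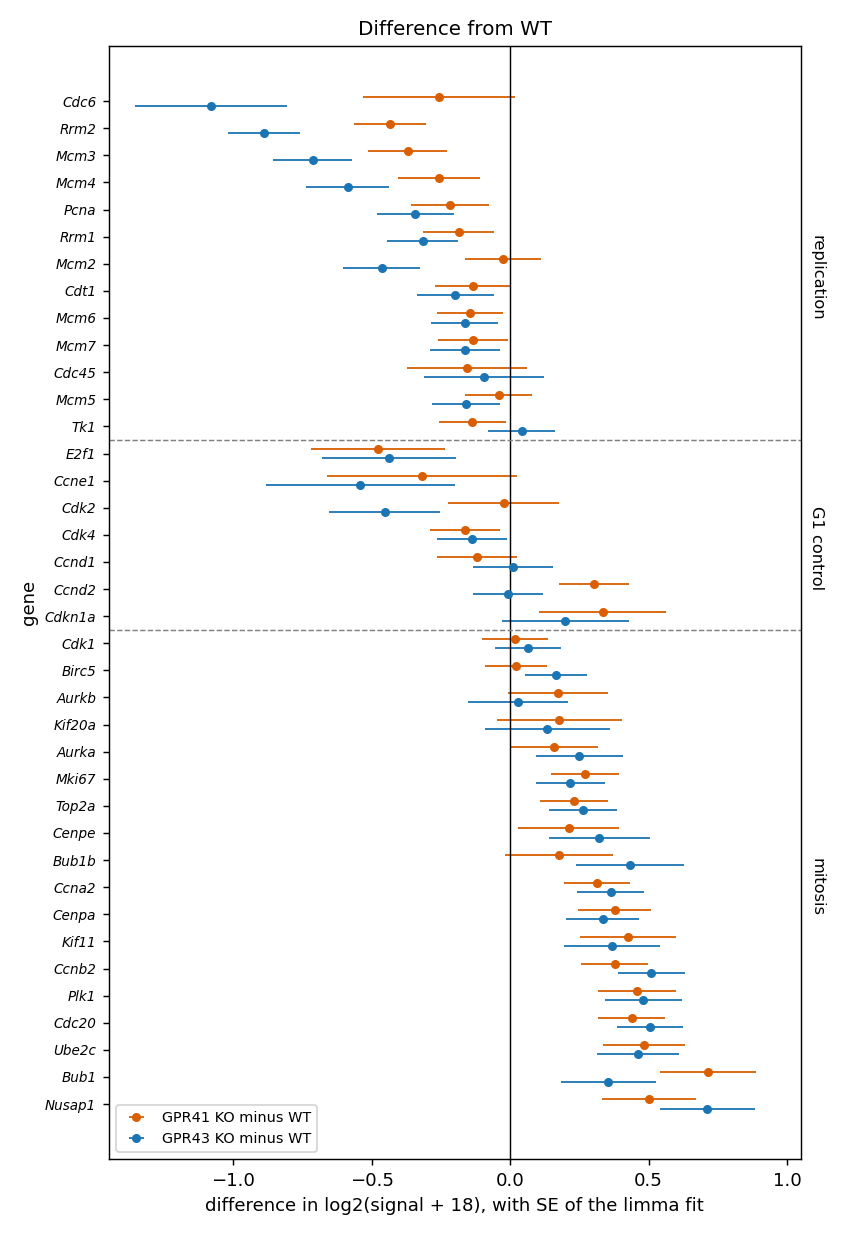
Points are the log2 difference of each tested member from WT, orange for GPR41 KO and blue for GPR43 KO, with the SE of the limma fit as lines. With the deposited scaling, replication members lie left of 0 except Tk1 in GPR43 KO, mitosis members lie right of 0, and G1 members lie on both sides.

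The KO groups were then compared with each other. No member passed the threshold in limma, and no gene of all those tested did (0.0%), while 5 members had an unadjusted p under 0.05 (596 of all genes). GPR43 KO minus GPR41 KO was -0.45 ± 0.13 for Rrm2, -0.44 ± 0.14 for Mcm2, -0.34 ± 0.14 for Mcm3 and -0.83 ± 0.28 for Cdc6 (log2, SE, limma adjusted p = 0.87 for each). For each of these 4 genes both GPR43 KO arrays were below both GPR41 KO arrays, as for 7 of 13 replication members (14.8% of all genes). The replication median was -0.13 and 11 of 13 were below 0 (43.7% of all genes). Mitosis members were close to each other in the KO groups, with a median of 0.04 and 11 of 18 above 0 (56.3% of all genes). That median turned to -0.04 with median centring, to -0.01 when the library labelled GPR43 KO replicate 1 was left out and to -0.004 without GPR41 KO replicate 2. Ccnd2 was the other member at an unadjusted p under 0.05, at -0.31 ± 0.13 (adjusted p = 0.87).

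Further probe sets of the same genes had been left out by the choice of the kept one. Of 23 further replication probe sets, 14 from 9 genes were above the filter, and all 14 were below WT in each KO group, with medians of -0.21 in GPR41 KO and -0.48 in GPR43 KO. Of 16 further mitosis probe sets, 9 from 8 genes were above the filter, and all 9 were above WT in each, with medians of 0.40 and 0.39. The other 2 probe sets of Rrm2 differed from WT by -0.81 and -0.61 over both KO groups. For Mcm3, 3 other probe sets gave -0.47, -0.43 and -0.26, and a weak one below the filter gave 0.13. Cdc20 had another strong probe set at 0.50. Of 15 further G1 probe sets, 11 were above the filter, and the sign was that of the kept one for 11 of them in GPR41 KO but for 6 of them in GPR43 KO. Among these, the 5 other Ccnd2 probe sets above the filter lay between 0.31 and 0.48 in GPR41 KO and between -0.25 and 0.12 in GPR43 KO. Probe sets of a gene share the sample, so they check the probes and not the animals.

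A wider set of cell cycle genes, not among the members but also listed with earlier results of these data known, was read in the same fit. Of 52 other replication genes 49 were tested, and over both KO groups 36 were below and 13 above 0 with a median of -0.18. Of all genes, 48.4% were below 0 over both, 49.9% in GPR41 KO and 46.0% in GPR43 KO, and 3.2% were called higher and 3.79% lower over both. Tipin, a fork protection factor, fell by 0.50 ± 0.12 over both KO groups (limma adjusted p = 0.0469), from 1095 and 1187 in WT to between 754.3 and 902.5. Fen1, the flap endonuclease that processes Okazaki fragments, went the other way and rose by 0.57 ± 0.14 (0.0475), from 1084 and 1366 to between 1508 and 2094. In the single KO groups no gene of this list passed (38 and 34 of 49 below 0, and 27 and 33 with median centring), nor did any without the library labelled GPR43 KO replicate 1.

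Of 81 other mitosis genes 76 were tested, and 61 were above 0 over both KO groups (51.6% of all genes) with a median of 0.21. Of all genes, 3.2% were called higher and 3.79% lower over both, and 1.85% and 1.55% were called higher in GPR41 KO and in GPR43 KO. Aspm, a spindle pole protein, had signals of 231.3 and 174.8 in WT, 428.4 and 377.6 in GPR41 KO, and 450.7 and 395.6 in GPR43 KO. Aspm rose by 0.94 ± 0.21 in GPR41 KO (limma adjusted p = 0.0429) and by 1.01 ± 0.21 in GPR43 KO (0.0372). In GPR43 KO the spindle genes Knstrn (0.79, adjusted p = 0.0199), Ckap2 (0.81, 0.0372) and Ckap2l (0.62, 0.0464) rose as well. Over both KO groups these 4 and the centrosome kinase gene Nek2 (0.54, 0.04) rose, and 70 of the 76 did not pass. Mybl2, which encodes B-MYB, a transcription factor of late S and G2 phase, fell by 0.86 ± 0.20 (0.0352), with 323.4 and 348.8 in WT and 165.9 to 206.9 in the KO arrays. With the library labelled GPR43 KO replicate 1 left out, 0 of the 76 were called in any comparison, while 60, 55 and 61 were above 0 in GPR41 KO, in GPR43 KO and over both.

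The remaining cell cycle lists showed little. Among 21 tested other genes of G1 and E2F control, 0 were called (6.99% of all genes) and 11 were above 0 (51.6%) over both KO groups. Among 25 tested CDK inhibitors and p53 targets, Cdkn1c, which encodes the inhibitor p57, was the only one called. It fell by 0.74 ± 0.18 over both KO groups (limma adjusted p = 0.0456).

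The same differences can be read array by array. The median level of the mitosis members minus that of the replication members, each gene taken against its own mean over the 6 arrays, was -0.21 and -0.46 in WT, 0.07 and 0.15 in GPR41 KO, and 0.23 and 0.28 in GPR43 KO. For the other mitosis and replication genes it was -0.12 and -0.37, 0.03 and 0.12, and 0.18 and 0.12. Because each gene is taken against its own mean, positive values in the KO arrays set negative ones in WT. WT replicate 2 was the farthest from the KO arrays in both sets. The part of neutrophil RNA in the split was not tested.

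**Figure D4:**
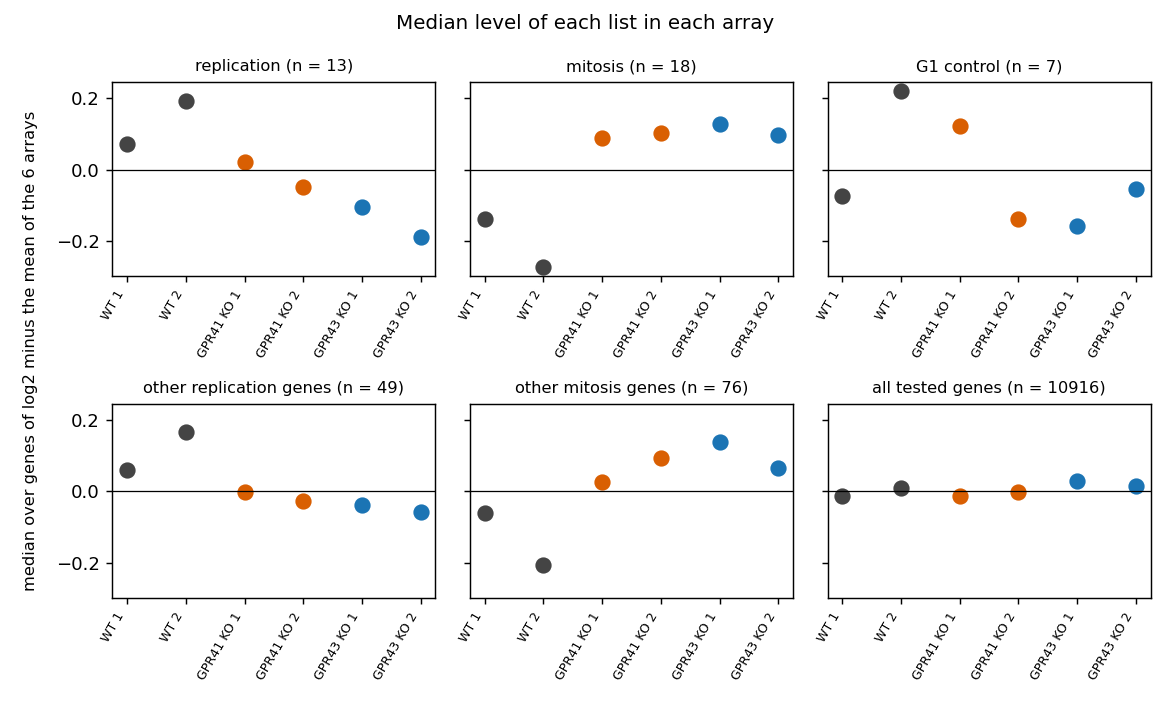
Each point is the median over the genes of a list, in 1 array, of log2(signal + 18) minus the gene's mean over the 6 arrays. Replication lists are highest in WT, mitosis lists are lowest in WT, and all tested genes together stay between -0.01 and 0.03.

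Several lists of markers of other cells differed between the same groups. In whole colon, fewer cells of a type and less RNA per cell cannot be told apart. For the counts of called markers below, the shares of all tested genes over both KO groups were 3.2% higher and 3.79% lower. A count of 1 in such a short list is not read as a result about that cell type. The summed signal of 15 absorptive colonocyte markers was 235230 to 242817 in WT, 318882 to 323649 in GPR41 KO and 290167 to 351741 in GPR43 KO, with 3 of 15 called higher over both KO groups. For 10 goblet cell markers it was 215602 to 240326, 276707 to 323616 and 308753 to 414951, with 2 of 10 higher. For 13 macrophage and monocyte markers it was 32008 to 49849, 14752 to 18557 and 19504 to 21679. All 13 passed the filter, although the signal of Itgam went as low as 50.5. High WT signals may have helped such markers to pass, so no count of falls is drawn from this list. The sum of 14 crypt stem and progenitor markers overlapped between groups, at 20889 to 21137, 19291 to 22239 and 18857 to 20992. Of the 11 tested, 7 were above 0 and 4 below over both KO groups, with a median of 0.18 (51.6% of all genes above 0). Cd44, an adhesion receptor of crypt cells that leukocytes also carry, was the only one called, and it fell by 0.75 ± 0.15 over both KO groups (limma adjusted p = 0.0231). The sum of 9 plasma cell markers was 31770 to 32801 in WT, 38742 to 44185 in GPR41 KO and 38210 to 44292 in GPR43 KO, with 2 of 8 tested called higher over both. For 10 smooth muscle markers the sum was 82713 to 94746, 104793 to 121530 and 116098 to 137376, with 3 of 10 called higher over both. For 14 markers of squamous epithelium, 4 of which passed the filter, the sum was 3853 to 7232, 1992 to 2848 and 1993 to 3049. As with the neutrophil markers, high WT signals raised the means that the filter reads, so no count of falls is drawn from them. For 10 endothelial markers it was 3590 to 4588, 2695 to 2958 and 3394 to 3493, with 1 of 9 called lower (Pecam1). For 12 fibroblast and stromal markers it was 49333 to 69274, 40399 to 50581 and 52286 to 55101, with 1 of 12 called lower (Fn1), and for 11 T and NK cell markers 738 to 944, 1059 to 2120 and 979 to 1254, with 0 of 3 called in limma and 1 at an unadjusted p under 0.05. For 13 markers of B cells and germinal centres, 4 of which passed the filter, the sums were 1331 to 1762, 1040 to 1572 and 1316 to 1920. No marker in these lists was at 0 in any array. The part of these cell types in the differences of the replication and mitosis members was not tested.

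The promoters of the members were read for 3 short motifs that textbooks assign to replication or mitosis genes. RefSeq windows of 250 bases before the gene start (GRCm38.p6) were found for 34 of the 40 members, and none for Mcm4, Ccna2, Aurkb, Kif20a, Ccnd1 and Ccnd2. Both strands were searched for E2F elements (with the letters TTCCCGC, with TTCGCGC, with TTGCCGC or with TTGGCGC), for the cell cycle homology region, CHR (with TTTGAA or with TTTAAA), and for CCAAT, the letters that NF-Y binds, and matches were allowed to overlap. The windows of the called members that hold a match are printed because these genes passed the test. Each is written 5′ to 3′ on the strand of the gene and ends at the base before its start, with the matches in capitals.

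The windows of Rrm2 (chr12:24708004-24708253, plus strand) and Mcm3 (chr1:20820313-20820562, minus strand), which fell, were as follows.
Rrm2: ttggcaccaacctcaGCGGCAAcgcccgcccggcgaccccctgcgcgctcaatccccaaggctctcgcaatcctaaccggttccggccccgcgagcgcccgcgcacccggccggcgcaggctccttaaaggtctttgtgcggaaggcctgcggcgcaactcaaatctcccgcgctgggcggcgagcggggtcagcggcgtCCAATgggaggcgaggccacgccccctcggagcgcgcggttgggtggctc
Mcm3: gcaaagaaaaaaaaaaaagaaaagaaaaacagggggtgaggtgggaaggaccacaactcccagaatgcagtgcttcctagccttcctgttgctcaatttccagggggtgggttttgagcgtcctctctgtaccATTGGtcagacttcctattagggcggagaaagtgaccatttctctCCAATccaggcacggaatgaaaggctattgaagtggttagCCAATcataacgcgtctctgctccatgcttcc
The windows of Cdc20 (chr4:118437344-118437593, minus strand) and Ccnb2 (chr9:70421555-70421804, minus strand), which rose, were as follows.
Cdc20: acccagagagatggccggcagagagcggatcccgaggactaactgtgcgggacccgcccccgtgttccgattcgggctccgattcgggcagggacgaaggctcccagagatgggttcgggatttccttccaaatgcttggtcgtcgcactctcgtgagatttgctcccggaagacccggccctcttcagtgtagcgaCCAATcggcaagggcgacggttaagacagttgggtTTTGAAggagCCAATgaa
Ccnb2: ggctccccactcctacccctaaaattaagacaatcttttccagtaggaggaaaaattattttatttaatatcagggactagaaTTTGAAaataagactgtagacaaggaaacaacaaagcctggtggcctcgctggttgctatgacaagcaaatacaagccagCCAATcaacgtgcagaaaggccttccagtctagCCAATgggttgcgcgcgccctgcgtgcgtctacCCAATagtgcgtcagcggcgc

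The Rrm2 window held an E2F element on the opposite strand at -235 to -229 from the start, and a CCAAT at -50 to -46. Mcm3 held 3 CCAAT matches, at -117 to -113 on the opposite strand, -72 to -68 and -32 to -28. Cdc20 held a CHR at -18 to -13 between CCAAT matches at -53 to -49 and -8 to -4. Ccnb2 held 3 CCAAT matches, at -87 to -83, -54 to -50 and -21 to -17, and a CHR farther out at -167 to -162. The letters searched were not found in the window of Nusap1, the third called mitosis gene.

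The roles differed in the motifs their windows held, as a description of letters and not of bound factors. An E2F element was present for 6 of 13 replication members (46.2%), 3 of 16 mitosis members (18.8%) and 16.3% of all tested genes with a window. CHR was present for 4 of 13 (30.8%), 11 of 16 (68.8%) and 20.5%. CCAAT was present for 9 of 13 (69.2%), 14 of 16 (87.5%) and 39.9%. Both CCAAT and CHR were in the windows of 10 of the 16 mitosis members (62.5%), 3 of 13 replication members (23.1%) and 7.6% of all tested genes. The member counts include 2 genes that were not tested. These are Ccnb1, which has no probe set and held each motif, and Tyms, which was below the filter and held none. Among the other genes of each role, 42.9% of 42 replication genes held an E2F element and 32.8% of 67 mitosis genes held both CCAAT and CHR. The number of matches and the size of the difference did not always go together. Cdk1, with a difference of 0.04 over both KO groups, held 2 E2F, 2 CHR and 3 CCAAT matches, while Nusap1, at 0.61, held none.

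**Figure D5:**
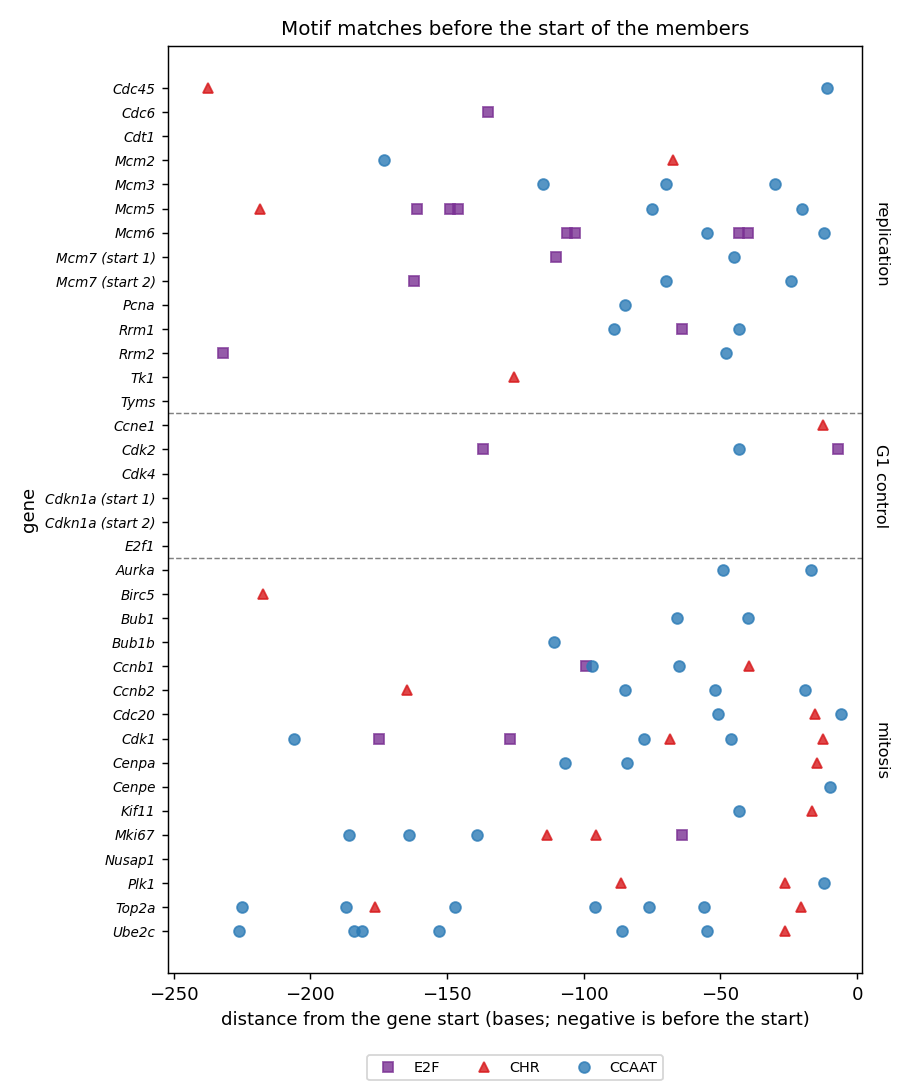
Each row is a member's window of 250 bases, or 1 row for each of 2 annotated starts for Mcm7 and Cdkn1a, and each mark is a match by distance from the gene start. E2F marks are most common in the replication rows, and CHR marks in the mitosis rows, several of them near the start with CCAAT marks upstream.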

How the data were processed

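Total RNA from colon, 2 µg per sample, was labelled with biotin and hybridised to 1 Affymetrix array per sample, per the labels' protocols. The deposited values are linear intensities per probe set, which the authors computed with MAS5, per the submitters' processing notes, which name no version. MAS5 subtracts background and scales each array, so weak signals are unreliable. The number of arrays, 2 per group, limits the precision.

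Of 45101 probe sets, 34958 carried 1 gene symbol in the platform annotation, 932 several and 9211 none. For each gene the probe set with the highest mean log2 over the 6 arrays was kept. Before log2 was taken, 18 (the 20th percentile of the signals) was added, which pulls differences of weak signals toward 0. Genes above the 40th percentile of mean log2 were tested with limma 3.58.1 (R 4.3.3, lmFit on all 3 groups, then eBayes with a trend). The fit was also run on simulated data with independent noise. Apart from runs with no shift, the shifts there were larger than most differences of the members. That check thus does not cover differences of this size or spread shared by arrays. Groups of 2 arrays leave 3 residual degrees of freedom, raised to 8.71 by pooling over genes. The 4 contrasts were: each KO group against WT, the KO groups against each other, and their mean against WT. The alternatives covered pseudocounts, scaling, filters, the choice of probe set, the samples in the fit, a replicate block and leaving out each array.

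The members and all gene lists were chosen with earlier results of these data known. All 40 members could be named. From other lists, up to 4 called genes with the smallest p per comparison were named, and those in counts up to 5. Promoter windows were printed for called members that held a motif. Mouse positions and promoter sequences are from RefSeq, GRCm38.p6.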

Additional observations from a re-analysis of the deposited data

Results flagged for a closer look

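Tyms and Tk1 were the replication members whose KO groups lay on opposite sides of the WT mean, with every array of each group on its own side. Tyms, read without the filter on weak signals, had a log2 difference of GPR43 KO minus GPR41 KO of -0.917 ± 0.371 (SE, n = 2 per group, limma adjusted p = 0.908). For Tk1 this difference was 0.179 ± 0.121 (limma adjusted p = 0.895). Neither difference passed the threshold, and the GPR43 KO values include the library labelled GPR43 KO replicate 1. Groups of 2 arrays are too small to single out an array within a group.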

How the results depend on the processing

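Across the scaling, filter, probe set and leave-one-out alternatives, the replication median stayed below 0 and the mitosis median above 0 in GPR41 KO, in GPR43 KO and over both, while the calls of Mcm3, Ccnb2, Cdc20 and Nusap1 were lost under several. Rrm2 kept its call in 17 of 18 alternatives in GPR43 KO and in 15 of 17 over both. Where values moved, the cause was not tested. With median centring, which moved the GPR41 KO median of all genes from 0.00 to 0.11, the replication median was -0.041 in GPR41 KO, -0.17 over both KO groups and -0.21 between the KO groups, and the mitosis median was 0.41 in GPR41 KO, 0.40 over both and -0.041 between the KO groups, with 6 of 18 above 0. Members called were then 1 higher in GPR41 KO (Bub1), 1 higher in GPR43 KO (Nusap1), and 6 higher and 1 lower over both. Quantile normalization and a fit without the trend each also called 1 member higher in GPR41 KO (Bub1). Without the trend 0 were called higher and 1 lower over both, and with no filter 1 higher. With the mean over a gene's probe sets, 1 member was called lower in GPR43 KO and 0 higher and 1 lower over both, and the GPR43 KO replication median was -0.38. With the lowest probe set of each gene, 1 was called lower in GPR43 KO and 0 in either direction over both. The replication medians were then -0.24 in GPR41 KO and -0.41 in GPR43 KO (7 below 0, with fewer genes above the filter), and the mitosis medians 0.37, 0.22 and 0.25 in GPR41 KO, in GPR43 KO and over both and -0.005 between the KO groups (7 above 0). Mcm3 was reversed there, at 0.071 in GPR43 KO and 0.132 over both.

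With 1 array left out, members called ranged from 0 to 1 higher in GPR41 KO, 0 to 1 higher and 0 to 2 lower in GPR43 KO, and 0 to 1 higher and 0 to 2 lower over both. Mitosis medians ranged from 0.23 to 0.39, from 0.26 to 0.43 and from 0.26 to 0.41 in GPR41 KO, in GPR43 KO and over both. The replication medians ranged from -0.22 to -0.10 in GPR41 KO, from -0.37 to -0.17 in GPR43 KO, from -0.27 to -0.11 over both and from -0.18 to -0.08 between the KO groups. Between the KO groups the mitosis median ranged from -0.013 to 0.085, being -0.004 without GPR41 KO replicate 2 and -0.013 without the library labelled GPR43 KO replicate 1, with 7 to 13 of 18 above 0. Such a fit assumes that the lone array of a group varies like the other groups. The deviations of same-numbered arrays from their group means had correlations from -0.27 to 0.11 between groups. With 2 arrays per group these values cannot settle whether the numbers pair the samples, and the labels do not say so. With the replicate block, 1 member was called lower in GPR43 KO (Rrm2), 0 higher and 1 lower (Rrm2) over both and 0 in GPR41 KO. A fit of only the groups compared was not run for both KO groups against WT, which uses all groups. Weak signals, such as those of Tyms and Cdc6, limit what can be read from them.

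Over all genes, 541, 432 and 763 were called in GPR41 KO, in GPR43 KO and over both, and from 195 to 892, 129 to 761 and 355 to 1009 with 1 array left out. The lowest probe set gave 331, 286 and 471, and the fit without the trend 360, 217 and 485. Median centring gave 370 higher and 319 lower in GPR41 KO against 202 and 339, and 500 and 379 over both against 349 and 414.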
